A study of Mus musculus with 7 samples.

Results

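Mitochondrial ribosomal protein genes encode the proteins of the ribosome inside mitochondria, and 75 of them were followed in RNA-seq libraries of C2C12 myotubes with and without electrical pulse stimulation (EPS). Members were the gene symbols that start with Mrpl or Mrps followed by a digit, averaging at least 1 CPM, the reads of a gene scaled to a common library total, over the 7 libraries. Of the 26607 genes listed, 76 symbols matched and 75 passed the minimum, 46 with a large subunit symbol (Mrpl) and 29 with a small subunit symbol (Mrps). The excluded gene was Mrpl36, listed at 0 in the 3 control libraries and at 1, 3, 4 and 2 reads in EPS replicates 1 to 4, at or under the floor of 3 reads in all but 1 library. The members nearest above the minimum were Mrps17, with a mean of 3.74 CPM, and Mrps18b, with control values of 7.40, 8.06 and 6.10 CPM and EPS values of 12.4, 11.3, 8.13 and 13.1 CPM.

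C2C12 is an established mouse myoblast line whose cells fuse into multinucleated myotubes after serum withdrawal, and EPS makes the myotubes contract in the dish as a model of exercise. EPS began on day 3 of differentiation, lasted 24 h and ended 1 h of rest ahead of harvest (4 libraries, replicates 1 to 4). The control libraries came from C2C12 cells labelled as given no stimulation (3 libraries, replicates 1, 3 and 4), also with day 3 of differentiation. When the control cells were harvested is not given in the sources used here, so any difference in culture time cannot be told apart from EPS. All 7 libraries share 1 cell line with no genetic change stated, so they carry no difference between animals, and nothing states that the libraries of a group came from separate cultures. The p-values therefore measure the spread between these libraries, which may be technical.

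The mitochondrial ribosome translates the few messenger RNAs that the mitochondrial genome still encodes, all of them for subunits of the oxidative phosphorylation complexes. Its ribosomal RNAs come from mitochondrial DNA, whereas its proteins are encoded by nuclear genes scattered over the chromosomes, translated in the cytosol and imported. The small subunit decodes the messenger, and the large subunit forms the peptide bond and passes the new chain into the inner membrane. In muscle, contraction is known to be followed by more mitochondria, so the supply of these proteins is of interest in an exercise model. Bulk libraries cannot tell more RNA per cell from more cells that hold it.

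Each library held 16616917 to 22120641 reads, and 52 to 2504 of them (median 597) fell on each member in each library. Control replicate 4 stood apart from the other libraries: it had the most reads but 359 genes with 1 to 5 reads, against 2670 to 3181 elsewhere, and 14014 genes above 0, against 16144 to 16984 elsewhere. Whether it was filtered or processed in another way is not given in the sources used here. The myotube markers were present in every library, their summed level over 10 genes lying between 10146 and 17727 CPM. The summed immune, endothelial and adipocyte markers reached at most 2.07, 0.904 and 0.140 CPM in any library. The endothelial maximum was that of Pecam1 in control replicate 4. Only the immune marker Cd3e and the adipocyte marker Plin1 were at 0 in every library. Markers of fibroblasts or other mesenchymal cells summed to between 56.2 and 153 CPM. Since control replicate 4 stood apart, the members are also described with each control library alone and without control replicate 4. The comparison of EPS with control was tested with limma on log2(CPM + 1) over 19144 genes above 0 in at least 1 library.

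The promoters of the members are shown first, since they are where the genes of this dispersed set could share sequence. Windows of 300 bases, 250 before and 50 from the start site on, were given by RefSeq for 66 of the 75 members on GRCm38.p6. The 5 windows below include those of the member with the largest change (Mrpl14) and of 2 further members with low P (Mrps18a, Mrpl45). They also include those of 2 members that stood high in control replicate 4 (Mrpl12, Mrps11). All 5 hold a match to the motifs named next, whereas 26 of the 66 members with a window hold none. Mrpl20, further above the other controls in control replicate 4 than Mrpl12, is among those 26. Capitals mark matches on either strand to the NRF1 motif (GCGC, any base, then TGCGC), the ETS motif CCGGAAG or the YY1 motif AAGATGGC, which are bound by factors known to act on nuclear genes for mitochondria.
Mrpl14, chr17:45686099-45686398, plus strand: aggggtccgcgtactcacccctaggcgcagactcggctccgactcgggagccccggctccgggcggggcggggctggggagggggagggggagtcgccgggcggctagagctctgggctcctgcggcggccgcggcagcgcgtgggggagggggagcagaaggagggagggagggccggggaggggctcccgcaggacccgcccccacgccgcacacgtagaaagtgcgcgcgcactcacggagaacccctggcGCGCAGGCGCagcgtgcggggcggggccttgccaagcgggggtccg
Mrps18a, chr17:46110754-46111053, plus strand: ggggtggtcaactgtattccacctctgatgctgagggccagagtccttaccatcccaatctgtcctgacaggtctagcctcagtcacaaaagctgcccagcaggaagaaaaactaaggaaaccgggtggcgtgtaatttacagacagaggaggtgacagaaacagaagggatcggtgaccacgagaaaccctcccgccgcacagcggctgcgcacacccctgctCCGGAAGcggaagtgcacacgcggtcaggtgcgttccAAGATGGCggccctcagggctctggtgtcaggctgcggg
Mrpl45, chr11:97315466-97315765, plus strand: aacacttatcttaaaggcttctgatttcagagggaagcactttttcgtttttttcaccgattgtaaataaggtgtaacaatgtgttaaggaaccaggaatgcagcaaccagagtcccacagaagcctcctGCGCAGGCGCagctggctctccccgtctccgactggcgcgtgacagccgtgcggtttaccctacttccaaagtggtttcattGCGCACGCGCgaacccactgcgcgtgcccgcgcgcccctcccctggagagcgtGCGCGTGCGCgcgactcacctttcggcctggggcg
Mrpl12, chr11:120484387-120484686, plus strand: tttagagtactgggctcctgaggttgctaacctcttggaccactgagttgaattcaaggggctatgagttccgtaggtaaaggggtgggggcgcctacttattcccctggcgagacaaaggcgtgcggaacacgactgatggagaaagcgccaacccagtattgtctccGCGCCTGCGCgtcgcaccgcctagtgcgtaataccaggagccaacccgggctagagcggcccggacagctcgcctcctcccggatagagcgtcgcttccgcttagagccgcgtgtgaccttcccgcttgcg
Mrps11, chr7:78782881-78783180, plus strand: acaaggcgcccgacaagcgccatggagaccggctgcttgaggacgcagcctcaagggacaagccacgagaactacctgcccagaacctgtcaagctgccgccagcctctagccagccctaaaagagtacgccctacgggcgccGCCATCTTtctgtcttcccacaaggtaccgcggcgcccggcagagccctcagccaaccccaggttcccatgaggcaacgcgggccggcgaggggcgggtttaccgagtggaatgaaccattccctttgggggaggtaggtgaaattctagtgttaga

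The Mrpl14 window held 1 NRF1 match, 5 bases after the start site. The Mrpl45 window held 3 NRF1 matches, 2 of them at 120 and 38 bases before the start site and the other 16 bases after it. The Mrps18a window held an ETS match at 26 bases before the start site and a YY1 match 12 bases after it. In Mrpl12 the NRF1 match lay 81 bases before the start site, and in Mrps11 the YY1 match lay 107 bases before it. Mrps11 and Mrpl46 are transcribed in opposite directions from neighbouring starts and overlap in an exon.

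Over all members with a window, the ETS motif was found in 24 of 66 (36.4%), against 9.93% of all 27025 genes with a window and 20.1% of those with a mean of at least 1 CPM. The NRF1 motif was found in 12 of 66 members (18.2%), against 5.19% of all genes and 11.7% of the genes with a mean of at least 1 CPM. The YY1 motif was found in 11 of 66 (16.7%), against 3.19% and 5.31%. Most of the YY1 matches lay after the start site, by 12 (Mrps18a) to 37 bases (Mrps24). The YY1 word holds the letters ATG, and whether a match includes the gene's start codon was not examined. In all, 40 of the 66 members held at least 1 of these 3 motifs, 7 held at least 2 of them and 26 held none. The SP1 motif GGGGCGGGG was found in 13 members (19.7%, against 12.9% and 25.5%) and the E-box CACGTG, a palindrome that reads alike on both strands, in 4 (6.06%, against 8.09% and 12.2%). The searched motifs are exact words on both strands, and no motif contains another. Among the 17 members with a window and P under 0.05 (below), 6 held the NRF1 motif, against 6 of the other 49. The counts of the ETS and YY1 motifs went the other way, with 5 of 17 against 19 of 49 for ETS and 1 of 17 against 10 of 49 for YY1. By median log2 fold change, members with and without the motif stood at 0.47 and 0.34 for NRF1 and 0.38 and 0.34 for ETS. For YY1 they stood at 0.31 and 0.36. The motif counts describe the letters of the windows, and neither they nor the medians carry a test.

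The members' levels were higher in EPS for most genes, by small amounts, and no member passed the adjusted threshold in limma. The log2 fold change was positive in 71 of 75 members, with a median of 0.36 and a range of -0.25 (Mrps31) to 0.96 (Mrpl14). That is 94.7% of the members, against 63.6% of genes with a mean of at least 1 CPM. The median over those genes was 0.10, and 65 of the 75 members lay above it. With limma and Benjamini-Hochberg adjustment over all genes, 0 members were called at an adjusted p under 0.05 in either direction, where the whole table had 0.0992% of its genes called higher and 0.0418% called lower. At an unadjusted P under 0.05, 20 members were higher and 0 lower, against 8.4% of all tested genes higher and 3.21% lower (9.12% and 3.53% among the genes with a mean of at least 1 CPM). The edgeR quasi-likelihood test on recovered reads called 1 member higher, Mrpl14, at an adjusted p under 0.05, where 0.778% of all genes were called higher and 0.737% lower. At P under 0.05 it gave 14 members higher and 0 lower, against 5.6% and 5.95% of all genes. DESeq2 called Mrpl14 too (1.27% of genes called higher and 1.33% lower), with 15 members higher and 0 lower at P under 0.05, against 5.19% and 5.42%. At P under 0.01 with more than 2-fold on the log2(CPM + 1) scale, 0 members passed in either direction, against 0.966% of genes higher and 0.439% lower. Mrpl14 came nearest, with a limma P of 0.00162 and a log2 fold change of 0.96, while the ratio of its mean CPM was 2.03.

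**Figure D1:**
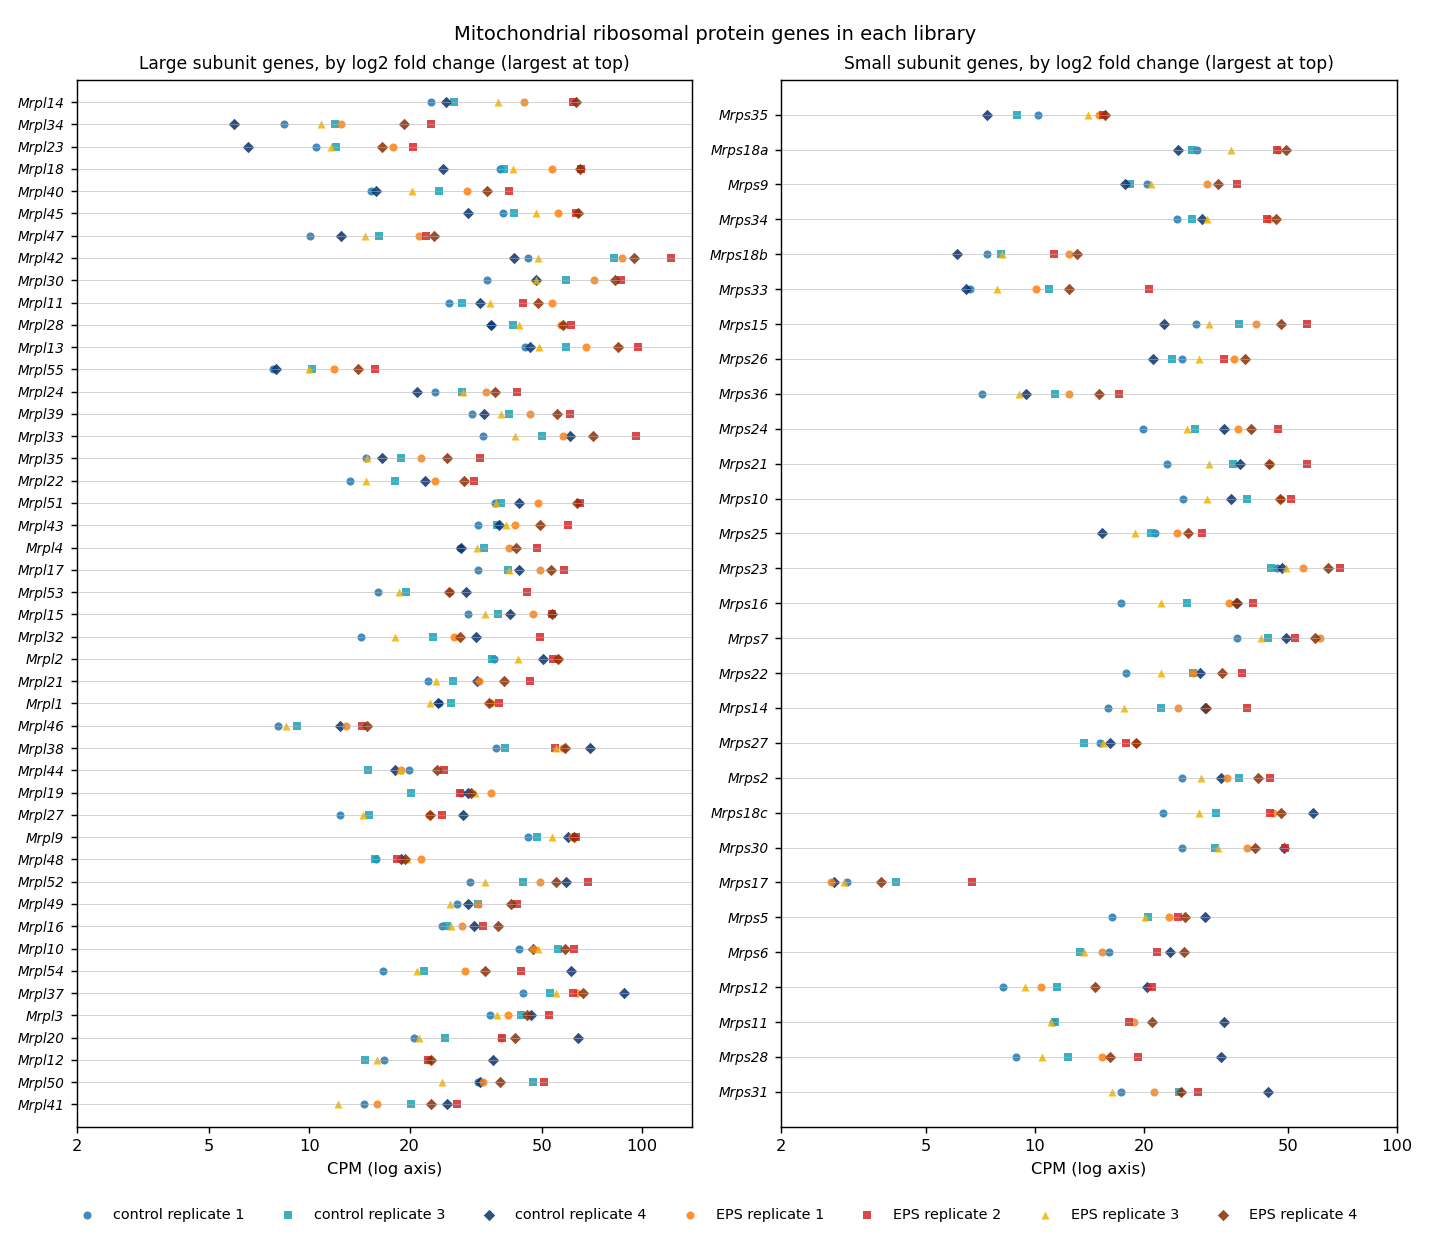
CPM of the 75 members in each of the 7 libraries (horizontal log axis, 1 point per library, blue for control and warm colours for EPS), large subunit symbols on the left and small subunit symbols on the right, ordered by log2 fold change. EPS replicate 3 was the lowest EPS library in 70 of 75 members, and the dark blue diamonds of control replicate 4 lie to the right of every other library in 11.

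The groups did not overlap, with every EPS library above every control library, in 14 members, against 7.76% of all genes tested and 9.18% of those with a mean of at least 1 CPM, and in 0 members the other way, against 2.85% and 3.49%. These were Mrpl11, Mrpl14, Mrpl18, Mrpl24, Mrpl28, Mrpl43, Mrpl45, Mrps9, Mrps18a, Mrps18b, Mrps23, Mrps26, Mrps34 and Mrps35. Of them, 12 had P under 0.05, and 8 more members reached P under 0.05 with overlapping groups (Mrpl4, Mrpl23, Mrpl30, Mrpl34, Mrpl39, Mrpl40, Mrpl47 and Mrps15). The 20 members with P under 0.05 had log2 fold changes of 0.40 to 0.96 and limma adjusted p-values of 0.126 to 0.427. The other 55 members had a median log2 fold change of 0.28 and a range of -0.25 to 0.63, and 51 of them were positive.

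Mrpl14, a conserved protein of the large subunit face that meets the small subunit, had the largest change. It was measured at 23.3, 27.1 and 25.8 CPM in control replicates 1, 3 and 4 and at 44.1, 62.1, 36.9 and 63.3 CPM in EPS replicates 1 to 4. The controls lay close together and the EPS libraries spread widely above them, with EPS replicate 3 the lowest. The mean was 25.4 ± 1.97 CPM (SD, n = 3) in control and 51.6 ± 13.2 CPM (SD, n = 4) in EPS, 2.03-fold higher, with a log2 fold change of 0.96 (SE 0.21, limma adjusted p = 0.126). The exact two-sided permutation test of its mean CPM gave p = 0.0571, where the smallest p that 35 splits can give is 0.0286. In edgeR's quasi-likelihood test its adjusted p was 0.0472 and its log2 fold change 0.91, and over all alternatives its adjusted p lay between 0.00794 and 0.531. The gene lies at chr17:45686322-45698495 on the plus strand, with an exon that overlaps Tmem63b on the other strand.

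Mrps35, a small subunit protein particular to mitochondrial ribosomes, was the only member to reach the smallest permutation p. It stood at 10.2, 8.97 and 7.37 CPM in the control libraries and at 15.0, 15.4, 14.1 and 15.7 CPM in EPS. Its EPS libraries were nearly equal, and EPS replicate 3 was close to the rest. The EPS mean of 15.1 ± 0.707 CPM (SD, n = 4) stood against a control mean of 8.85 ± 1.42 CPM (SD, n = 3), with an exact two-sided permutation p = 0.0286. The log2 fold change was 0.71 (SE 0.20, limma adjusted p = 0.214). A further 12 members had a permutation p of 0.0571.

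Among the members near the exit of the new chain, Mrpl45, which holds the large subunit at the inner membrane, was at 38.2, 41.3 and 30.1 CPM in control and 55.8, 63.4, 48.0 and 64.4 CPM in EPS. Its groups did not overlap (log2 fold change 0.65, SE 0.17, limma adjusted p = 0.186). Mrpl23, a protein at the rim of the exit tunnel, was at 10.49, 12.0 and 6.55 CPM in control and 17.8, 20.5, 11.6 and 16.6 CPM in EPS. Here EPS replicate 3 fell just below control replicate 3, and the log2 fold change was 0.73 (SE 0.28, limma adjusted p = 0.351). Without control replicate 4, the lowest library for this gene, its log2 fold change was 0.50.

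The stalk, where translation factors dock, is built from Mrpl10 and Mrpl12 on a base that includes Mrpl11, and the values of the 3 genes follow, with no test of the differences between them. Mrpl11 was at 26.3, 28.8 and 32.6 CPM in control and 53.5, 44.0, 34.9 and 48.8 CPM in EPS, with no overlap (log2 fold change 0.60, SE 0.18, limma adjusted p = 0.234). Mrpl10 was at 42.6, 56.1 and 47.1 CPM in control and 47.0, 62.5, 48.8 and 58.7 CPM in EPS, and its groups overlapped (0.16, SE 0.17, adjusted p = 0.779). Mrpl12 was at 16.7, 14.7 and 35.6 CPM in control and 22.7, 22.8, 15.99 and 23.3 CPM in EPS. Control replicate 4 was the highest of the 7 libraries for Mrpl12, and the log2 fold change was 0.017 with it (limma adjusted p = 0.983) and 0.39 without it.

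Of the other large subunit genes, Mrpl18, a protein of the central protuberance, was at 37.3, 38.6 and 25.1 CPM in control and 53.6, 65.8, 40.9 and 65.2 CPM in EPS. Mrpl28 was at 35.3, 41.0 and 35.1 CPM in control and 57.3, 61.3, 42.8 and 57.8 CPM in EPS. Both pairs of groups were apart, by a log2 fold change of 0.73 (SE 0.22) and 0.54 (SE 0.17), with limma adjusted p-values of 0.240 and 0.241. Mrpl34, another large subunit protein, was at 8.40, 11.9 and 5.92 CPM in control and 12.4, 23.1, 10.9 and 19.3 CPM in EPS. For Mrpl34 EPS replicate 3 lay below control replicate 3 (log2 fold change 0.82, SE 0.33, limma adjusted p = 0.376; 0.60 without control replicate 4). Mrpl3, which reaches towards the peptidyl transferase centre, and Mrpl44, which resembles a ribonuclease III, had log2 fold changes of 0.061 (SE 0.18) and 0.28 (SE 0.20) with overlapping groups. The Mrpl3 value turned slightly negative under scaling other than CPM.

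The 3 homologues of the bacterial protein S18 are Mrps18a, Mrps18b and Mrps18c. Mrps18a, which despite its symbol is found in the large subunit, was at 28.04, 27.3 and 24.9 CPM in control and 47.0, 46.8, 34.9 and 49.4 CPM in EPS. Every EPS library was above every control (log2 fold change 0.70, SE 0.17, limma adjusted p = 0.146). Mrps18b had separate groups too, with EPS replicate 3 just above control replicate 3 (log2 fold change 0.57, SE 0.24, limma adjusted p = 0.418). Mrps18c was at 22.6, 31.7 and 58.6 CPM in control and 45.4, 44.7, 28.4 and 47.9 CPM in EPS. Control replicate 4 was the highest library for Mrps18c, with a log2 fold change of 0.22 (SE 0.32, limma adjusted p = 0.823) and of 0.59 without that library. Without control replicate 4 the log2 fold changes of Mrps18a and Mrps18b were 0.66 and 0.47. The difference between the 3 genes was not tested.

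In the small subunit, Mrps34, a protein found only in mitochondrial ribosomes, was at 24.8, 27.2 and 29.1 CPM in control and 44.3, 43.9, 29.97 and 46.5 CPM in EPS. Its lowest EPS library, replicate 3, was barely above the highest control (log2 fold change 0.57, SE 0.19, limma adjusted p = 0.276). An exon of Mrps34 overlaps Nme3 on the same strand, so its reads depend on how shared reads were counted, which is not given in the sources used here. Mrps12, a protein of the decoding centre, was at 8.16, 11.6 and 20.4 CPM in control and 10.4, 21.1, 9.41 and 14.7 CPM in EPS, and the groups overlapped. Its log2 fold change was 0.079 (SE 0.36), and 0.41 without control replicate 4. Mrps7, Mrps22 and Mrps30 had log2 fold changes of 0.31 (SE 0.18), 0.28 (SE 0.24) and 0.22 (SE 0.24), all with overlapping groups. For Mrps30, whose highest control was replicate 4, the value without that library was 0.47, with an unadjusted limma P of 0.0474. Mrps30, like Mrps18a, is found in the large subunit. Mrps36, now placed in the oxoglutarate dehydrogenase complex, was at 7.17, 11.4 and 9.45 CPM in control and 12.4, 17.1, 9.04 and 15.1 CPM in EPS (0.47, SE 0.27, limma adjusted p = 0.563).

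The other members without overlap were Mrps9, Mrps26, Mrpl24, Mrpl43 and Mrps23, described here, as are Mrpl40 and Mrpl47, after their values were seen. Mrps9, in the head of the small subunit, was at 20.5, 18.4 and 17.7 CPM in control and 29.8, 36.1, 21.01 and 32.0 CPM in EPS. Mrps26 was at 25.6, 24.01 and 21.3 CPM in control and 35.6, 33.4, 28.5 and 38.0 CPM in EPS, and Mrpl24, a protein near the exit tunnel, was at 23.8, 28.7 and 21.1 CPM against 33.9, 42.0, 28.9 and 36.2 CPM. EPS replicate 3 was the library nearest the controls in each of the 3 genes, whose log2 fold changes were 0.61 (SE 0.21), 0.50 (SE 0.16) and 0.50 (SE 0.18). Mrpl43 (0.40, SE 0.18) and Mrps23 (0.34, SE 0.16) were apart as well, with P above 0.05. Among the members that overlapped, Mrpl40 was at 15.3, 24.5 and 15.9 CPM in control and 29.7, 39.8, 20.3 and 34.1 CPM in EPS, and Mrpl47 was at 10.03, 16.2 and 12.4 CPM in control and 21.4, 22.4, 14.7 and 23.7 CPM in EPS. In both genes the overlap was that of EPS replicate 3 with control replicate 3. Mrpl42, among the members lowest in control replicate 4, was at 45.4, 82.4 and 41.2 CPM in control and 87.3, 122, 48.6 and 94.9 CPM in EPS (0.63, SE 0.34, limma adjusted p = 0.511).

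The 4 members with a negative log2 fold change were Mrps31 (-0.25, SE 0.31), Mrpl41 (-0.060, SE 0.31), Mrpl50 (-0.045, SE 0.25) and Mrps28 (-0.042, SE 0.41). Mrps31 was at 17.4, 25.0 and 44.0 CPM in control and 21.4, 28.3, 16.4 and 25.4 CPM in EPS. Mrps28 was at 8.86, 12.3 and 32.7 CPM in control and 15.3, 19.2, 10.5 and 16.1 CPM in EPS. In both genes control replicate 4 was the highest library, and without it the values were 0.099 for Mrps31 and 0.48 for Mrps28. Mrpl41 also turned positive without it, at 0.13. Mrpl50 was at 32.1, 47.0 and 32.6 CPM in control and 33.3, 50.7, 25.1 and 37.4 CPM in EPS, and stayed negative without control replicate 4, at -0.13.

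Per kb of transcript, the highest levels were those of Mrpl33 (122.7 CPM per kb), Mrpl52 (116.3), Mrpl42 (111.9) and Mrps21 (79.3), and the lowest those of Mrps17 (1.72) and Mrps35 (2.98), around a median of 20.1. These are means over the 7 libraries divided by the length of each gene's principal transcript in GENCODE M21. Mrpl33 was at 33.2, 50.1 and 60.9 CPM in control and 58.0, 95.8, 41.4 and 71.3 CPM in EPS, and Mrpl52 was at 30.4, 43.8 and 59.0 CPM in control and 49.3, 69.0, 33.6 and 55.1 CPM in EPS. In both genes EPS replicate 2 was the highest library and EPS replicate 3 was below 2 of the 3 controls. Across the 75 members, the log2 fold change had a Spearman correlation of -0.12 with transcript length and 0.077 with GC content, as a description over genes that share the same libraries.

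The summed level of the 75 members was 1748, 2143 and 2406 CPM in the control libraries (in the order 1, 3, 4), and in the EPS libraries (1 to 4) it was 2650, 3237, 2018 and 2962 CPM. EPS replicate 3 lay below 2 of the 3 control libraries, and the other EPS libraries were above all of them. The means were 2099 ± 331 CPM (SD, n = 3) and 2717 ± 524 CPM (SD, n = 4), 1.29-fold higher. Both subunits had similar values, with 1424 ± 209 and 1863 ± 364 CPM (1.31-fold) for the large subunit symbols and 675 ± 124 and 854 ± 160 CPM (1.26-fold) for the small ones. The small subunit sum stayed between 44.7% and 49.8% of the large subunit sum in all 7 libraries, and the highest share was that of control replicate 4.

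**Figure D2:**
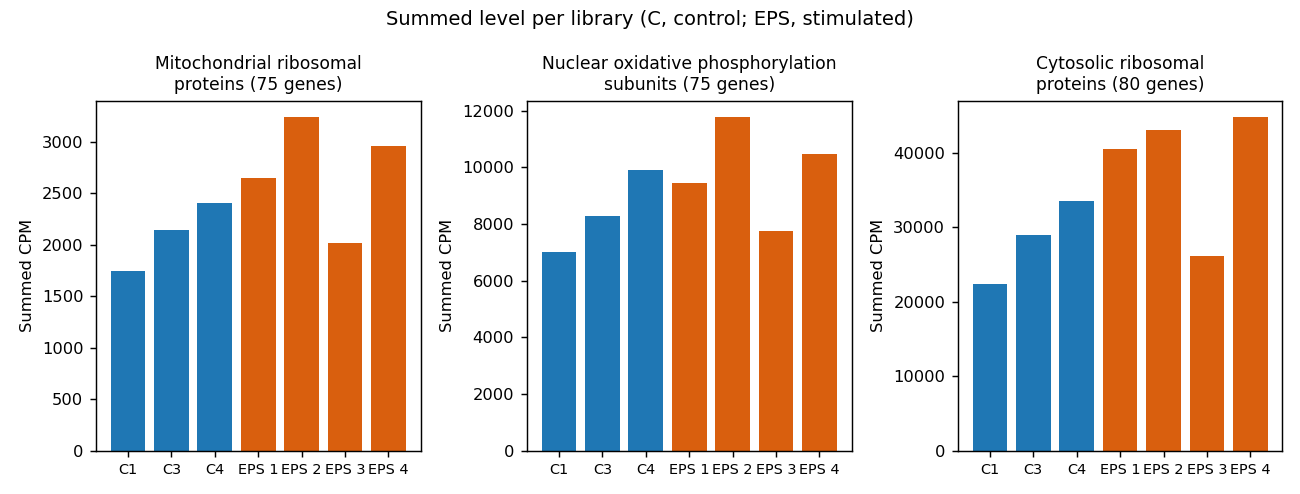
Summed CPM per library (bars from 0, control in blue and EPS in orange) of the members, of nuclear oxidative phosphorylation subunits and of cytosolic ribosomal proteins. In all 3 panels control replicate 1 is the lowest library and EPS replicate 3 is the lowest EPS library, at 2018 CPM for the members.

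Some libraries were often at the ends of the members' ranges. EPS replicate 2 was the highest of the 7 libraries in 46 members, EPS replicate 4 in 12, control replicate 4 in 11 and EPS replicate 1 in 6. Control replicate 1 was the lowest of the 7 in 45 members and control replicate 4 in 15. EPS replicate 3 was the lowest EPS library in 70 members, below control replicate 3 in 48 and below control replicate 1 in 11. EPS replicates 1, 2 and 4 were all above every control library in 43 members, against 14.6% of the genes with a mean of at least 1 CPM. Without EPS replicate 3, singled out here as the lowest EPS library, the members at P under 0.05 in limma were 39, all higher. The background was 9% of all genes higher and 2.72% lower, and the members' median log2 fold change was 0.49. Of the 20 members with P under 0.05 over all libraries, 12, 11 and 11 kept it without EPS replicates 1, 2 and 4. In those fits 6.81%, 7.21% and 6.63% of all genes were higher.

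With control replicate 1 alone, 63 members lay below every EPS library and 0 above, against 36.4% and 16.5% of the genes with a mean of at least 1 CPM. With control replicate 3 alone, 27 lay below every EPS library and 0 above, against 28.8% and 16.3%. With control replicate 4 alone, 28 lay below and 11 above every EPS library, against 39.8% and 22.9%. The members' share below every EPS library was thus 84.0%, 36.0% and 37.3%, far above the background for control replicate 1, somewhat above it for control replicate 3 and below it for control replicate 4. The EPS mean was above the control value in 75, 69 and 53 members, and the median difference on the log2(CPM + 1) scale was 0.60, 0.31 and 0.20, beside 0.13, 0.082 and 0.15 over genes with a mean of at least 1 CPM. A single library gives no test.

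**Figure D3:**
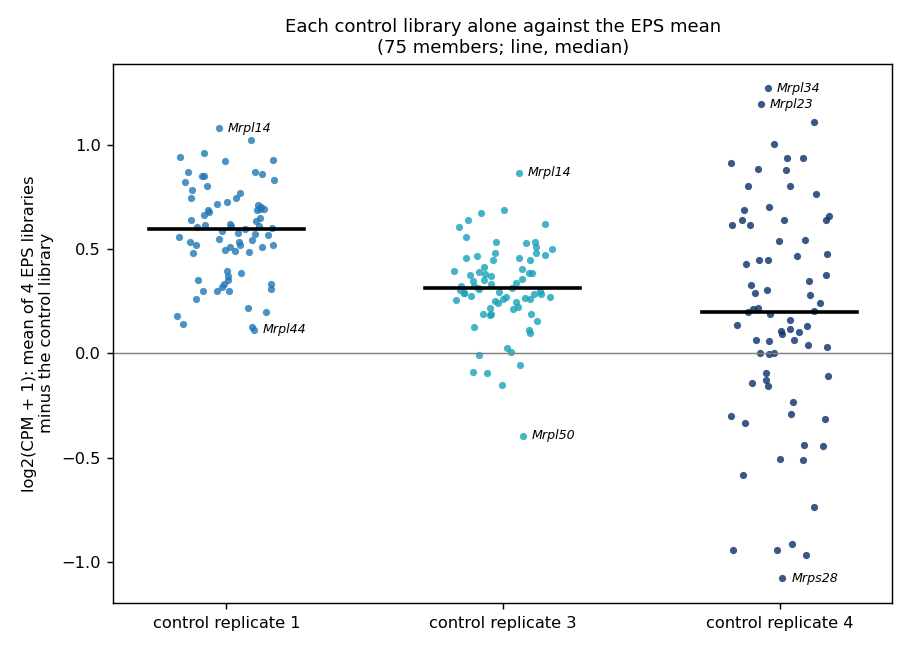
Mean log2(CPM + 1) of the 4 EPS libraries minus 1 control library (vertical axis), 1 point per member, for each control library alone, with the median as a line. The points for control replicate 4 reach from -1.08 (Mrps28) to 1.27 (Mrpl34), and the medians are 0.60, 0.31 and 0.20.

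Control replicate 4 also differed from the other controls in which members were high. For control replicate 4, the log2 difference from the mean of control replicates 1 and 3 had an SD over members of 0.53, against 0.27 for control replicate 3 minus control replicate 1. Over genes with a mean of at least 1 CPM the same SDs were 0.59 and 0.44. The difference exceeded 1 in 8 members (10.7%), against 5.87% of genes with a mean of at least 1 CPM, and fell below -1 in 0 members, against 2.64% of those genes. Mrpl54 was at 16.6 and 22.1 CPM in control replicates 1 and 3 and at 61.1 CPM in control replicate 4, and Mrpl20 was at 20.6, 25.6 and 64.2 CPM. Mrps11, a small subunit protein next to the exit of the messenger, was at 11.3, 11.4 and 33.3 CPM. For these 3 genes every EPS value lay below control replicate 4, with 29.4, 43.2, 21.01 and 33.7 CPM for Mrpl54. The members lowest in control replicate 4 against the others were Mrpl23, Mrpl34, Mrpl18 and Mrpl42. The difference had a Spearman correlation of -0.16 with transcript length and 0.11 with GC content over the 75 members. Without control replicate 4, 74 members had a positive log2 fold change, with a median of 0.47 beside 0.092 over genes with a mean of at least 1 CPM, and 17 members were higher and 0 lower at P under 0.05, against 7.32% and 4.03% of all genes. Of the 20 members with P under 0.05 over all libraries, 10 kept it, and Mrpl23, Mrpl34 and Mrps18b were among those that did not.

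The choice of scaling moved the level of all genes, and the members with it. CPM put the median of the genes with a mean of at least 1 CPM at 0.10, whereas quantile normalization, which the study's methods name, put it at 0.0052 and median-of-ratios scaling at -0.0048. Under these the members' median was 0.26 and 0.25, with 63 and 64 members positive. The distance between the members' median and that of the other genes was 0.26 on the deposited scale and 0.25 on each of these. After quantile normalization 15 members were higher and 0 lower at P under 0.05 in limma, against 5.74% and 4.98% of all genes. A correction for transcript length and GC content left a median of 0.17 for the members, with 58 positive and 13 higher and 0 lower at P under 0.05, against 6.73% and 6.59%. The pooled SD of the library median within groups was 0.25 on the same log2 scale, beside the median difference of 0.36.

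**Figure D4:**
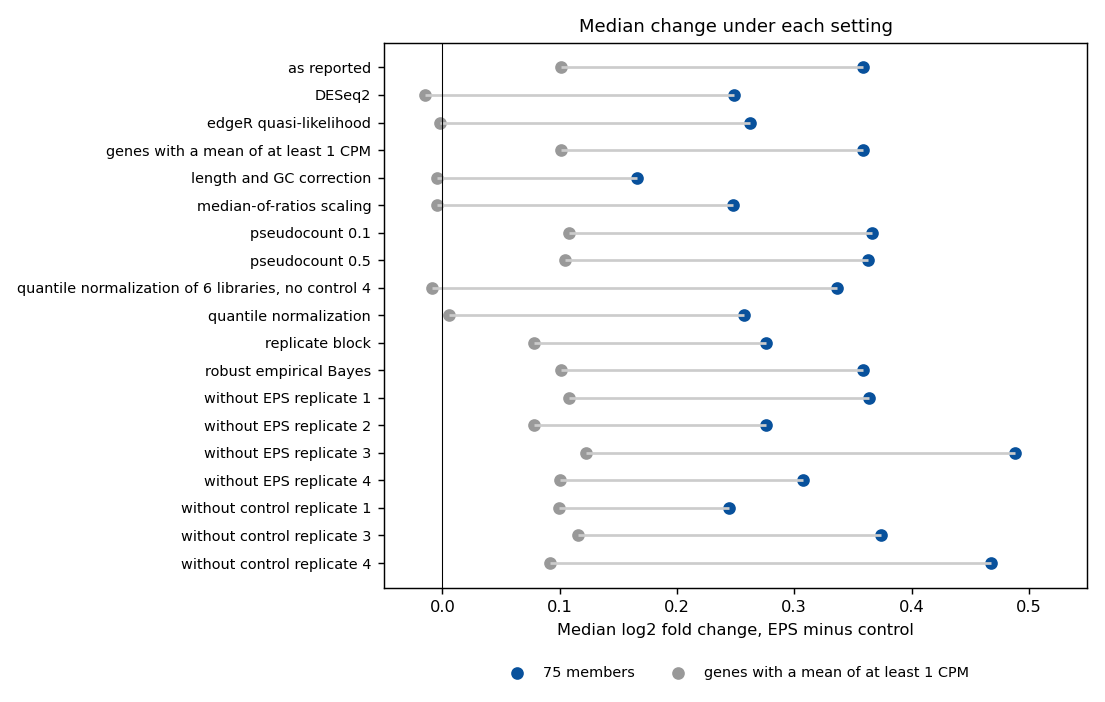
Median log2 fold change (horizontal axis) of the 75 members (blue) and of genes with a mean of at least 1 CPM (grey) under each setting. The blue point is to the right of the grey point in every row, from 0.17 after the length and GC correction to 0.49 without EPS replicate 3.

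Both of the other large sets of nuclear genes examined had positive medians, beside 0.10 for genes with a mean of at least 1 CPM. Nuclear subunits of oxidative phosphorylation (75 genes), which work with the proteins that mitochondrial ribosomes make, had a median log2 fold change of 0.33, with 16 higher and 0 lower at P under 0.05, where 8.4% of all tested genes were higher and 3.21% lower. Cytosolic ribosomal proteins (80 genes) had a median of 0.50, with 31 higher and 0 lower. The members' sum was 24.9%, 25.9% and 24.3% of the oxidative phosphorylation sum in the control libraries, while in EPS it was 28.1%, 27.5%, 26.0% and 28.3%. The shares did not overlap between groups, although EPS replicate 3 and control replicate 3 were nearly equal. Against the cytosolic ribosomal proteins, the members' sum was 7.80%, 7.39% and 7.18% in control and 6.55%, 7.52%, 7.73% and 6.62% in EPS, which overlapped.

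Genes that serve the mitochondrial ribosome without being called Mrpl or Mrps had lower medians. At P under 0.05, where 8.4% of all tested genes were higher, each list had at most 1 gene. Of 6 subunits with other symbols, 1 was higher at P under 0.05, the peptidyl-tRNA hydrolase Ict1, at 19.5, 21.4 and 15.8 CPM in control and 33.2, 34.0, 24.6 and 37.6 CPM in EPS (log2 fold change 0.74, SE 0.20, limma adjusted p = 0.191), and their median was 0.14. Of 34 mitochondrial translation factors, transfer RNA synthetases and modifying enzymes included, 1 was higher (Mto1, log2 fold change 0.81, with control replicate 4 the lowest library at 4.29 CPM) and 0 lower, with a median of 0.081. Of 23 ribosome assembly factors 1 was higher (Mtg1, 0.68) and 0 lower, with a median of 0.12. Of 7 genes of mitochondrial transcription and replication 1 was higher (Polg2, 0.62) and 0 lower. Of 10 regulators of nuclear genes for mitochondria, among them Nrf1 (-0.10, SE 0.19), Gabpa (0.17, SE 0.16), Yy1 (-0.15, SE 0.14) and Ppargc1a (0.24, SE 0.25), 0 were higher or lower, with a median of -0.096. Differences between the lists were not tested, and mitochondrially encoded genes were not analysed here.

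**Figure D5:**
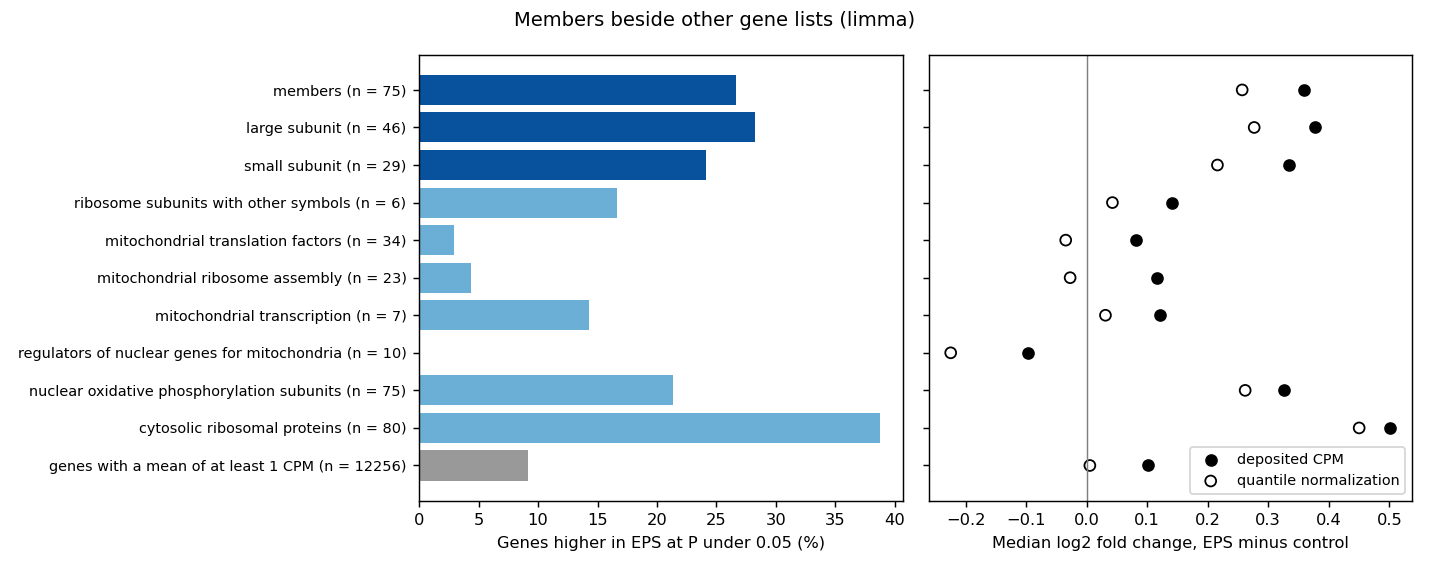
Left, percent of each list with P under 0.05 and higher in EPS (bars from 0). Right, median log2 fold change per list from the deposited CPM (filled) and after quantile normalization (open). The members stand at 26.7% and 0.36, between the oxidative phosphorylation subunits at 21.3% and 0.33 and the cytosolic ribosomal proteins at 38.8% and 0.50.

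Some markers of proliferating myoblasts moved with the groups as well, but not all. The log2 fold change was 0.20 (SE 0.34) for Myf5, -0.12 (SE 0.24) for Pax7 and 0.011 (SE 0.34) for Pcna, with P above 0.05. Of 8 such markers, 5 were higher in EPS at P under 0.05 (Mki67, Top2a, Ccnb1, Cdk1 and Ccna2) and 0 lower, against 8.4% and 3.21% of all tested genes, a background that holds for the other marker lists here as well. Their summed level was 412, 446 and 373 CPM in control and 875, 494, 578 and 1238 CPM in EPS. The EPS sums were all above the control sums, at 796 ± 337 (SD, n = 4) against 410 ± 37.0 CPM (SD, n = 3). The order of the EPS libraries differed from that of the members, since EPS replicate 2, the highest for the members, was the lowest for these markers. Of 10 myotube markers, 0 were higher and 1 lower at P under 0.05 (Actn2, log2 fold change -0.99), 8 had a negative log2 fold change, their median was -0.37, and their sum in EPS was 0.833 of that in control. Of 4 fibroblast markers, 1 was higher (Pdgfra, 0.70) and 1 lower (Lum, -0.89), and the summed immune markers stood between 0.525 and 2.07 CPM. The part of these cells in the members' values was not tested.

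On the chromosomes, 8 members lie on chromosome 17, and 6 of them (Mrpl14, Mrpl18, Mrpl28, Mrps18a, Mrps18b and Mrps34) had P under 0.05, where 8.92% of the 594 chromosome 17 genes with a mean of at least 1 CPM were higher at that threshold. The chromosome was singled out after the values were seen. An exon of another gene overlaps 31 of the 75 members in GENCODE M21, and 13 of the 20 members with P under 0.05 have no such overlap.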

How the data were processed

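RNA-seq of 7 libraries (3 control, 4 EPS) was analysed. Poly(A) RNA was made into directional libraries, from which paired reads of 100 bp were sequenced. Mapping was to GRCm38 by STAR 2.5.4b, as the submitters' processing notes also list. The authors deposited CPM per gene, reads scaled to a common total over the listed genes. The counter, its annotation and its use of strand are not given in the sources used here. All values (100%) were whole multiples of 1 read within 0.05 read, so reads were recovered.

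log2(CPM + 1) was tested with limma 3.58.1 in R 4.3.3 (empirical Bayes with a trend) over 19144 genes above 0 in at least 1 library, with Benjamini-Hochberg adjustment over all of them. Fold changes are on this scale and understate those of low genes. Single members also had an exact two-sided permutation test over 35 splits (Python 3.11.15). Alternatives were edgeR 4.0.16 and DESeq2 1.42.0 on recovered reads, quantile normalization, a length and GC correction, other pseudocounts (0.5, 0.1), scaling by median of ratios, a filter at 1 CPM, the robust form of empirical Bayes, a replicate block, and leaving out each library. Scripts were tested on simulated data. The study's methods name log2 transformation and quantile normalization, and the deposited CPM carry neither. For the comparison of groups they name edgeR with a negative binomial model of counts.

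Named members were those with the lowest P (8), the highest and lowest log2 fold change (5 each), the largest deviation of control replicate 4 in each direction (4 each), the extremes per kb, members of known role and those near the minimum. Mrps9, Mrps26, Mrpl24, Mrpl43, Mrps23, Mrpl40 and Mrpl47 fall outside this rule, were described after their values were seen, and are not in the counts over named members. Members and lists were chosen with earlier results of these data known. Coordinates and lengths are those of GENCODE M21 (GRCm38), matched by symbol for 24545 of 26607 genes (92.3%) and for all 75 members. Promoter windows are those of RefSeq for GRCm38.p6. Precision is limited by the library number and by counting error, with a floor of 3 reads (0.136 to 0.181 CPM) that covers counting error only.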

Additional observations from a re-analysis of the deposited data

Results flagged for a closer look

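In 3 of 36 groups examined (33 named members and 3 sums, the EPS group of 4 libraries in each), the lowest library lay far from the others by Dixon's criterion, which flags about 1 group in 20 by chance. In each it was EPS replicate 3, which was also the lowest EPS library in 70 of the 75 members. The groups share the same 4 EPS libraries, so the flags are not independent of each other. The gap to the next library was 0.841 of the group's range for Mrps34 (29.97 CPM, against 43.9 to 46.5 CPM in the other EPS libraries), 0.919 for Mrpl12 (15.99 CPM, against 22.7 to 23.3 CPM) and 0.835 for Mrps18c (28.4 CPM, against 44.7 to 47.9 CPM). Groups of 3 control libraries were not examined in this way. The cause was not tested.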

How the results depend on the processing

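For the 33 members of the naming rule under all alternatives but the quantile normalization of 6 libraries, 557 log2 fold changes kept their direction and side of the threshold (or, for 1 control alone, stayed within 1 SD), 69 changed sign, 32 moved by more and 2 passed the threshold. The median log2 fold change of the members stayed positive throughout (0.17 to 0.49 in the fits, and 0.20 to 0.60 with 1 control alone). At an adjusted p under 0.05, edgeR and DESeq2 each gave 1 member higher in place of 0. At P under 0.05, 20 members became 13 after the length and GC correction, 9 after quantile normalization of 6 libraries without control replicate 4 (chosen after seeing the data, against 5.33% of all genes), and 11 to 39 when 1 library was left out. These were 11 without control replicate 1, EPS replicate 2 or EPS replicate 4 (against 7.44%, 7.21% and 6.63% of all genes), 12 without EPS replicate 1 (6.81%) and 39 without EPS replicate 3 (9%). Without control replicate 3 all of the 20 members kept P under 0.05, where 9.97% of all genes were higher. Without control replicate 4, 10 of them kept it, where 7.32% of all genes were higher. A total of 10 members kept P under 0.05 in all of these 7 fits. With P under 0.01 and 2-fold the count was 0 to 1. Members without overlap, 14, were 14 to 43 without 1 library: 26 without control replicate 3, 23 without control replicate 4 and 43 without EPS replicate 3, against 19.3%, 16.6% and 14.6% of the genes with a mean of at least 1 CPM. They were 13 after quantile normalization (5.61% of those genes), 11 after median-of-ratios scaling (5.76%) and 12 after the length and GC correction (7.55%). With control replicates 1, 3 and 4 alone they were 63, 27 and 28 higher, and 11 lower with control replicate 4 alone. The causes were not tested.

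With the replicate block, in which EPS replicate 2 has no partner and adds nothing to the difference, 5 members had P under 0.05 and were higher, against 5.52% of all genes. Same-numbered libraries did not all deviate together (Pearson r over 12256 genes of 0.25, -0.45 and 0.068 for numbers 1, 3 and 4). Control replicates 1 and 3 correlated best with EPS replicates 3 and 2. Control replicate 4 correlated best with EPS replicate 4, at 0.068, beside 0.053 with EPS replicate 2. The numbers were therefore not taken as pairs. Among the members of the naming rule, the log2 fold change changed sign under the block for Mrpl12 (-0.022), Mrpl54 (-0.042), Mrpl20 (-0.012), Mrps17 (-0.052), Mrpl3 (-0.032) and Mrps12 (-0.13).

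With control replicate 4 alone the difference was negative in 22 of the 75 members, down to -1.08 (Mrps28). The changes of sign below are those of the 33 members of the naming rule, as log2 fold changes, and members outside it (Mrpl37, Mrps5 and Mrps6 among them) also changed sign. In the order DESeq2, edgeR, length and GC correction, median-of-ratios scaling and quantile normalization, they were -0.20, -0.19, -0.11, -0.092 and -0.11 for Mrpl12, -0.24, -0.23, -0.14, -0.063 and -0.094 for Mrps11, -0.22, -0.21, -0.22, -0.064 and -0.061 for Mrpl20, -0.054, -0.042, -0.077, -0.049 and -0.031 for Mrpl3, and -0.077, -0.069, -0.067, -0.027 and -0.064 for Mrps12. For Mrpl54 they were -0.20, -0.19 and, after the length and GC correction and quantile normalization, -0.0075 and -0.0035. The length and GC correction also turned Mrpl52 (-0.0015) and Mrps18c (-0.086). Leaving out 1 library gave ranges across 0 for Mrpl12 (-0.21 to 0.39), Mrpl20 (-0.27 to 0.53), Mrpl3 (-0.058 to 0.15), Mrpl41 (-0.27 to 0.14), Mrpl50 (-0.21 to 0.13), Mrpl52 (-0.020 to 0.45), Mrpl54 (-0.25 to 0.66), Mrps11 (-0.21 to 0.54), Mrps12 (-0.20 to 0.41), Mrps17 (-0.052 to 0.31), Mrps18c (-0.081 to 0.59), Mrps28 (-0.41 to 0.48) and Mrps31 (-0.55 to 0.099).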
